A study of Rattus norvegicus with 4 samples.

Results

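The synaptic vesicle release genes described here are the 64 of 30560 listed rat genes whose symbols begin with Syt, Cplx, Sv2, Stx, Stxbp, Vamp, Rims, Unc13 or Snap, with the Snapc and Sytl genes left out. They comprise 17 synaptotagmins (Syt), 3 complexins (Cplx), 5 Snap genes, 15 syntaxins (Stx), 6 Vamp genes, 7 syntaxin-binding protein genes (Stxbp), 4 Rims genes, 4 Unc13 genes and 3 genes of synaptic vesicle glycoprotein 2 (Sv2). Their transcripts were counted in single nuclei of the nucleus accumbens, the ventral part of the striatum, of Sprague-Dawley rats that were 90 to 120 days old. Females and males received cocaine (20 mg/kg, intraperitoneal) or saline daily over 7 days. At 1 hour past the final dose, a 2 mm punch centred on the core was collected. There were 4 libraries, 1 each of saline females, saline males, cocaine females and cocaine males, and each pooled nuclei of 4 rats (16 rats in all). The design thus has 2 pooled libraries for each treatment, and single rats cannot be followed in these pools. The p-values rest on the spread between pools, which for cocaine is mainly a spread shared over genes.

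In a nerve terminal, vesicles are brought to the active zone by Rims proteins and made ready by the priming factors encoded by the Unc13 genes. The SNARE proteins of the vesicle (Vamp) and of the plasma membrane (Stx and Snap) then pull the membranes together with the help of the Stxbp proteins, while complexins hold and assist the assembled complex. Some synaptotagmins sense the calcium that triggers fusion, and Sv2 proteins sit in the vesicle membrane. Many members of these families act in traffic to endosomes, lysosomes or the cell surface in cells other than neurons. The principal neurons of the accumbens are GABAergic medium spiny neurons (MSN), which carry dopamine receptor D1 or D2.

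Nuclei were assigned to cell classes from marker genes, none of which belonged to the 64. Of 24843 nuclei kept, 18255 (73.5%) were assigned, 5593 were not, and 995 were MSN whose D1 or D2 identity was not clear. The classes tested were D1-MSN (3190 nuclei), D2-MSN (2895), an MSN class marked by Grm8 and Chst9 (Grm8-MSN, 1150), glutamatergic neurons (362), Sst interneurons (253), Pthlh interneurons (316), astrocytes (1701), oligodendrocytes (6372), oligodendrocyte precursors (OPC, 1055) and microglia (797). A gate is a range: 81 D1-MSN, 70 D2-MSN and 223 Grm8-MSN nuclei lay near its limit. Grm8-MSN were gated on Grm8, Chst9, Casz1, Otof and Cacng5 together, so the class can hold more than 1 cell type. The Grm8-MSN nuclei held a median of 10 UMIs of these 5 markers, 30 UMIs of the 7 general MSN markers and 1 UMI each of the D1 and D2 lists. Libraries held 31484217 to 40737786 UMIs. Any 2 libraries shared 10 to 18 cell barcodes, at most 0.282% of the smaller one. Glutamatergic nuclei were few in the saline libraries (40 and 40) and more in the cocaine libraries (190 in females and 92 in males). UMIs were summed per library and class, and levels are given as CPM, the usual scaled rate of a gene's UMIs among all UMIs of that class and library. In such sums, fewer nuclei with a transcript and less transcript per nucleus cannot be told apart. UMIs are counted at the 3′ end and are not per length, so a level is compared here between classes within 1 gene and not between genes.

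Between classes, 55 of the 64 members passed the filter on low counts. The other members (Syt2, Syt5, Syt8, Syt15, Cplx3, Cplx4, Stx11, Stx19 and Stxbp2) held 0 to 257 UMIs over the tested classes and were not tested. Each class was set against the mean of D1-MSN and D2-MSN with edgeR's quasi-likelihood test, library as a term and Benjamini-Hochberg adjusted p under 0.05 over all genes tested. The fits rescale the sums (TMM scaling) and the CPM given here do not. A fitted log2 difference can therefore depart from the ratio of the CPM. D2-MSN against D1-MSN gave 1 higher and 4 lower members, 1.82% and 7.27% of the 55, beside 2.87% and 3.91% of all genes. In Grm8-MSN 5 members were higher and 15 lower (9.09% and 27.3%, beside 13.2% and 14.0% of all genes). In glutamatergic neurons 16 were higher and 12 lower (29.1% and 21.8%, beside 21.7% and 21.5%), so the share that was lower was near the background. Sst interneurons had 17 higher and 20 lower (30.9% and 36.4%, beside 18.3% and 20.5%). Pthlh interneurons had 13 higher and 21 lower (23.6% and 38.2%, beside 22.8% and 23.3%). The balance depended on the scaling, for all genes too. With RLE scaling, higher and lower members numbered 20 and 11 in glutamatergic neurons. They numbered 20 and 19 in Sst and 14 and 21 in Pthlh interneurons. Over all 13006 genes RLE gave 3103 and 2429 in glutamatergic neurons, 2642 and 2442 in Sst and 3177 and 2791 in Pthlh interneurons. With TMM scaling the counts over all genes were 2819 and 2796, 2380 and 2668, and 2966 and 3031 in that order. Glial classes had more members lower than higher. The counts of higher and lower members were 12 and 32 in astrocytes (21.8% and 58.2%, beside 37.0% and 34.9%), 17 and 33 in oligodendrocytes (30.9% and 60%, beside 41.6% and 37.9%) and 10 and 27 in OPC (18.2% and 49.1%, beside 31.4% and 29.7%). In microglia they were 13 and 35 (23.6% and 63.6%, beside 30.2% and 34.7%), where the median of all genes lay at -0.13 on the log2 scale. Every member called in the 9 contrasts kept its sign in each of 11 alternative analyses, but not every call was kept. Called in all of them were 2 of 5 members in D2-MSN, 11 of 20 in Grm8-MSN, 22 of 28 in glutamatergic neurons, 26 of 37 in Sst and 26 of 34 in Pthlh interneurons. In glia these were 43 of 44 in astrocytes, 48 of 50 in oligodendrocytes, 32 of 37 in OPC and 42 of 48 in microglia. The heat map of member levels shows these patterns by family.

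**Figure D1:**
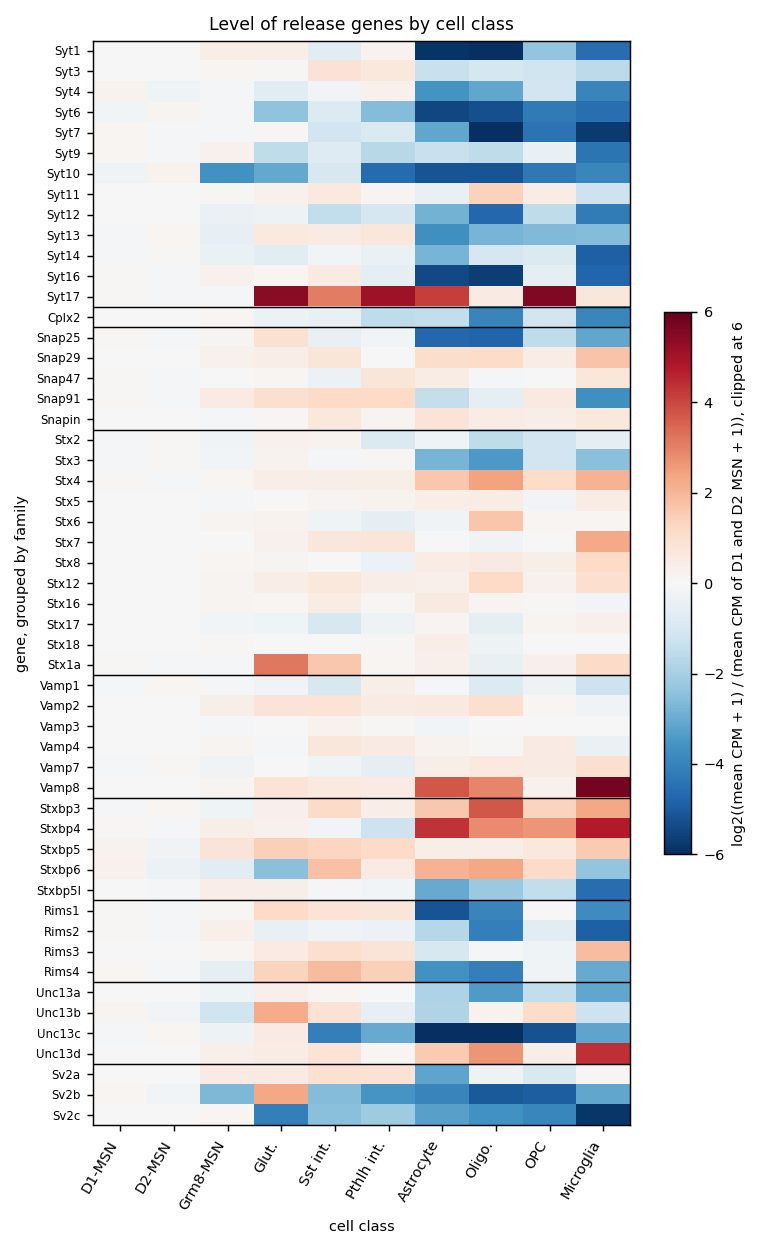
Level of tested release genes (rows, grouped by family) in 10 cell classes (columns), as log2 of the mean CPM over 4 libraries plus 1, relative to the mean of D1-MSN and D2-MSN plus 1; colours end at 6 in each direction. Most synaptotagmins are blue in glia, Syt17 and Vamp8 stand out in red, and Sv2b and Sv2c change in opposite directions in glutamatergic neurons.

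Among the synaptotagmins, Syt1, the sensor for fast transmitter release, was present in every neuronal class. Its level was 3243, 3333, 3265 and 3153 CPM in D1-MSN of the saline female, saline male, cocaine female and cocaine male libraries, the order used below. In Sst interneurons it was 2074, 2042, 2339 and 2113 CPM, below every D1-MSN library. The difference of Sst interneurons from D1-MSN and D2-MSN was -0.91 on the log2 scale (edgeR adjusted p = 3.28e-05). In OPC it was 539 to 696 CPM, and in oligodendrocytes 29.4 to 55.7 CPM. Syt7, a slower sensor with high calcium affinity, was at 0 to 0.589 CPM in oligodendrocytes against 91.1 to 109.6 CPM in D1-MSN (log2 -7.66, SE 0.211). Syt4, a synaptotagmin of neuropeptide vesicles, was at 28.9, 31.7, 28.1 and 28.2 CPM in D1-MSN and at 20.0, 20.3, 17.1 and 24.3 CPM in D2-MSN. All D2-MSN libraries lay below all D1-MSN libraries, and the difference was -0.51 on the log2 scale (edgeR adjusted p = 0.00151). DESeq2 gave an adjusted p of 0.0802 for Syt4 in this comparison.

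Syt10, a calcium-binding synaptotagmin known for vesicles that carry a growth factor in olfactory bulb neurons, separated the MSN classes. Its level was 85.4, 86.5, 88.3 and 93.5 CPM in D2-MSN. In D1-MSN it was 63.4, 52.3, 79.7 and 65.5 CPM, with no overlap. D2-MSN were higher by 0.46 on the log2 scale (edgeR adjusted p = 0.000139; DESeq2 adjusted p = 0.342). In Grm8-MSN Syt10 was at 4.00, 2.96, 7.17 and 6.83 CPM, from 43 UMIs in all. The difference of Grm8-MSN from the mean of D1-MSN and D2-MSN was -3.96 on the log2 scale (edgeR adjusted p = 2.60e-24). Pthlh interneurons held 6 Syt10 UMIs in all. Sst interneurons were between these and the MSN, with a mean of 38.9 CPM (log2 difference -1.28). Syt6, which is related to Syt10 in sequence, did not pass the test in Grm8-MSN, where its mean was 92.9 CPM against 86.2 in D1-MSN and 106 in D2-MSN. It was lower in glutamatergic neurons (log2 -2.93, SE 0.242), at 43.7, 2.09, 6.52 and 17.3 CPM, with the saline female library far above the others.

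Syt17, a synaptotagmin-like protein found at the Golgi, was all but missing from MSN. It had 3 UMIs in D1-MSN and D2-MSN together, all of them in D1-MSN of the cocaine libraries, and 0 in Grm8-MSN. OPC had 38.8, 49.2, 51.2 and 54.2 CPM and glutamatergic neurons 27.3, 35.5, 60.5 and 51.9 CPM. Pooled over libraries, the ratio to D1-MSN and D2-MSN was 811 in OPC (95% exact counting interval 273 to 3973) and 880 in glutamatergic neurons (297 to 4300.4). It was 523 in Pthlh interneurons (173 to 2591), 302 in astrocytes (100.4 to 1491) and 136 in Sst interneurons (36.8 to 753). These intervals cover counting error only and are wide because the MSN counts were so few. Syt11, a synaptotagmin that does not bind calcium, went the other way from Syt1 in oligodendrocytes. Its level was 442, 454, 363 and 465 CPM there, above the 157 to 182 CPM of the D1-MSN libraries (log2 1.32, SE 0.0596). By family, 2 of 13 tested synaptotagmins were higher and 11 lower in oligodendrocytes (beside 41.6% and 37.9% of all genes). In microglia 0 were higher and 12 lower (beside 30.2% and 34.7%).

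**Figure D2:**
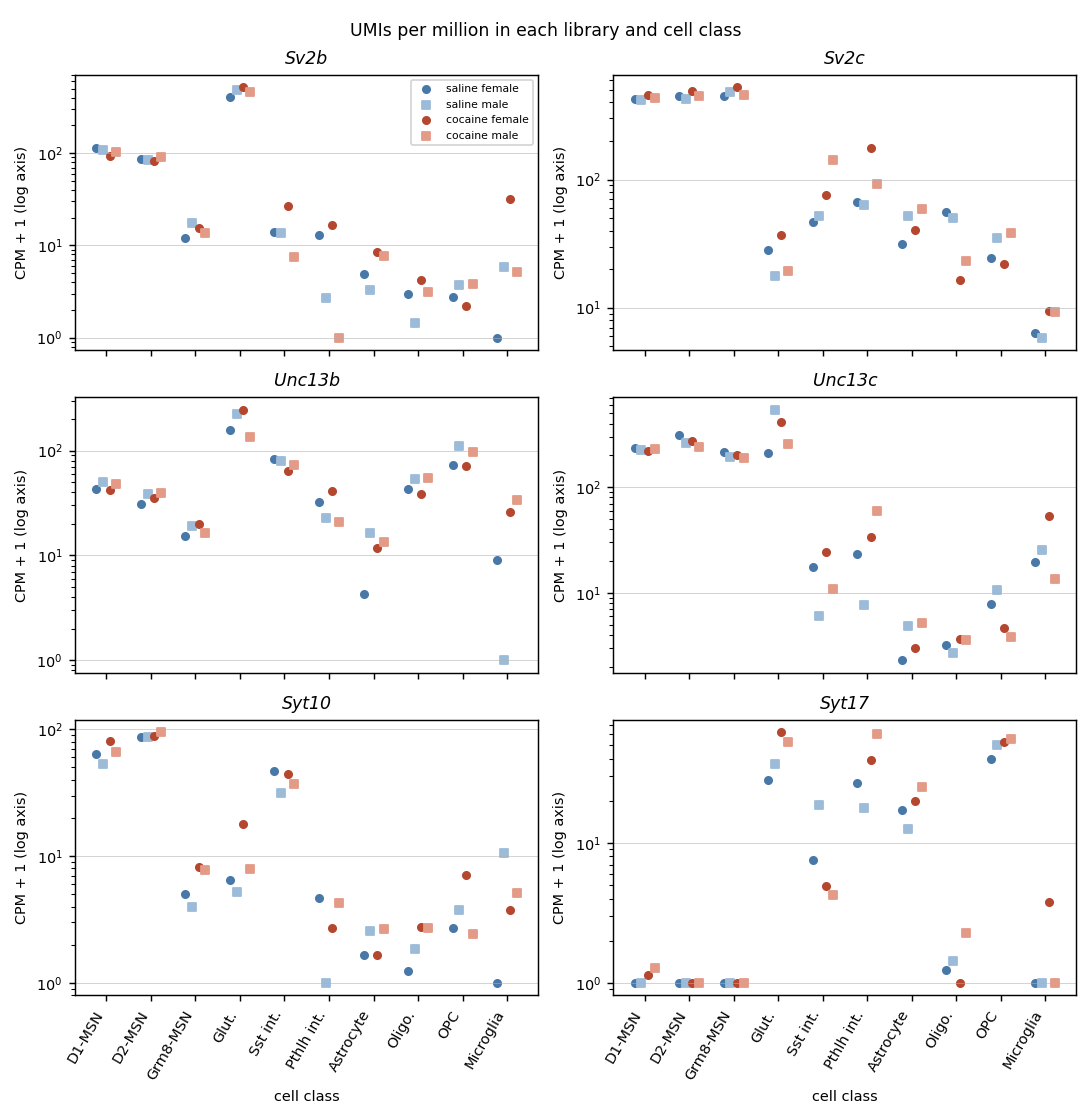
CPM plus 1 (log axes) of 6 release genes in each cell class, with 1 point per library. Sv2b and Unc13b are highest in glutamatergic neurons, Syt10 is highest in D1-MSN and D2-MSN, Unc13c is low in both interneuron classes, and Syt17 is at or near 0 in all 3 MSN classes.

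Of the complexins, which bind the assembled SNARE complex, Cplx2 was tested. It was at 107 to 122 CPM in D1-MSN and 111 to 119.5 CPM in D2-MSN, ranges that overlap. Pthlh interneurons were lower, at 59.1, 38.6, 26.0 and 36.1 CPM (log2 -1.64, SE 0.141, edgeR adjusted p = 5.98e-14). Glutamatergic neurons, at 83.0 to 97.8 CPM, were also below every D1-MSN and D2-MSN library (log2 -0.43, SE 0.104). Cplx3 held 29 UMIs and Cplx4 23 UMIs over all tested classes, so differences between classes were not detectable at this depth. Cplx1 was not analysed here.

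Snap25, the plasma membrane SNARE of neurons, was at 838, 793, 929 and 859.8 CPM in D1-MSN and 798, 783, 816 and 797 CPM in D2-MSN. Glutamatergic neurons were higher, at 1279.7, 1604, 1645 and 1707 CPM, with no overlap (log2 0.80, SE 0.145, edgeR adjusted p = 9.57e-06). Sst interneurons were lower, at 493 to 752 CPM (log2 -0.76, SE 0.165). Snap91, the clathrin adaptor AP180 that helps retrieve vesicle membrane, was higher in Grm8-MSN (log2 0.39), in glutamatergic neurons (0.84), in Sst and Pthlh interneurons (0.89 and 0.97) and in OPC (0.38). It was lower in astrocytes, oligodendrocytes and microglia (log2 -1.68, -0.67 and -4.25). Snap29, which also serves autophagosomes, was higher in astrocytes, oligodendrocytes and microglia (log2 0.84, 1.07 and 1.30). Snap25 had the opposite direction in those classes (log2 -5.01, -4.90 and -3.69). Snapin, a partner of Snap25 that also helps position lysosomes, was higher in Sst interneurons, astrocytes and oligodendrocytes (log2 0.33, 0.55 and 0.38). Snap47 passed the test in Pthlh interneurons alone among the 9 contrasts (log2 0.50).

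The syntaxins serve different membranes, and their class patterns differed. Stx1a, a neuronal plasma membrane syntaxin, was at 14.7, 17.9, 17.0 and 18.4 CPM in D1-MSN. In glutamatergic neurons it was at 116, 146, 187 and 155 CPM, far above every MSN library (log2 3.16, SE 0.108, edgeR adjusted p = 1.15e-28). Sst interneurons were intermediate, at 45.2 to 55.9 CPM (log2 1.33). Stx4, a plasma membrane syntaxin of many cell types, was higher in all 4 glial classes (log2 0.95 in OPC to 2.39 in oligodendrocytes). Stx6, of the trans-Golgi network, was higher in oligodendrocytes (log2 1.61), and Stx7, of late endosomes, was higher in microglia (log2 1.87). Of the 13 tested syntaxins, 0 differed between D2-MSN and D1-MSN by edgeR, beside 6.78% of all genes. For 13 genes a count of 0 is near that share.

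Of the vesicle SNAREs, Vamp2 (synaptobrevin), the main one of synaptic vesicles, was higher in glutamatergic neurons than in MSN (log2 0.66) and lower in microglia (log2 -0.64). It was also higher in oligodendrocytes, at 64.8, 47.1, 71.6 and 64.9 CPM against 28.8 to 35.4 CPM in D1-MSN (log2 0.95, SE 0.0779). Vamp3, found in recycling endosomes of most cells, passed the test in astrocytes and microglia alone (log2 -0.40 and -0.49). Vamp8, a SNARE of lysosomes and secretory granules, was at 50.8, 62.9, 86.2 and 53.7 CPM in microglia. D1-MSN and D2-MSN together held 11 Vamp8 UMIs, which puts microglia at 301 times their level (95% exact counting interval 159 to 629). Astrocytes stood at 68.8 times (36.5 to 143) and oligodendrocytes at 37.2 times the MSN level (19.9 to 76.9).

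The Stxbp family holds the SNARE partners of the Munc18 group and the release inhibitors tomosyn (Stxbp5, Stxbp5l) and amisyn (Stxbp6). Stxbp5 differed among all 3 MSN classes. It was at 124, 120.1, 115 and 107 CPM in D1-MSN and at 87.2, 92.2, 83.6 and 82.8 CPM in D2-MSN. Grm8-MSN were at 181, 168, 181 and 164 CPM. The 3 ranges do not overlap: D2-MSN were below D1-MSN (log2 -0.42, SE 0.0678, edgeR adjusted p = 1.12e-05) and Grm8-MSN above the mean of both (log2 0.69, SE 0.0626, edgeR adjusted p = 8.11e-13). Stxbp6 was at 101 to 142 CPM in D1-MSN and 62.1 to 84.6 CPM in D2-MSN (log2 -0.60, SE 0.121, edgeR adjusted p = 0.000376). Outside MSN its mean was 16.6 CPM in glutamatergic neurons, 501 CPM in oligodendrocytes and 338 CPM in Sst interneurons. The differences from MSN were -2.64, 2.31 and 1.51 on the log2 scale in that order.

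Stxbp3, the Munc18 protein that works with Stx4, was at 446, 439, 455 and 465 CPM in oligodendrocytes. D1-MSN and D2-MSN means were 30.5 and 35.3 CPM, and the log2 difference was 3.71 (edgeR adjusted p = 1.38e-41). Stxbp4, which also binds Stx4, was at 257, 155, 181 and 215 CPM in microglia (log2 4.55) and at 141 to 155 CPM in astrocytes (log2 4.28). Stx4, Stxbp3 and Stxbp4 were each higher in all 4 glial classes than in MSN. Stxbp5l had the opposite direction from Stxbp5 in microglia (log2 -5.03 against 1.17).

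At the active zone, Rims1 was at 819, 833, 789 and 807 CPM in D1-MSN and 1465, 1973, 2148 and 1631 CPM in glutamatergic neurons (log2 1.10, SE 0.148, edgeR adjusted p = 2.02e-08). Rims2, its paralog, was lower in the same neurons (log2 -0.56). Rims1 made up 66.2% ± 5.05 (SD, n = 4 libraries) of the Rims UMIs in glutamatergic neurons and 40.5% ± 1.60 in D1-MSN. Shares within a family depend on how well each gene is captured and are compared between classes only. Rims4, a short form with a single C2 domain, was higher in Sst interneurons, at 73.7 to 111 CPM against 23.7 to 29.7 CPM in D1-MSN (log2 1.64, SE 0.155). Pthlh interneurons and glutamatergic neurons were also higher (log2 1.24 and 1.28), while Grm8-MSN were lower (log2 -0.74). In microglia Rims3, another short form, was higher (log2 1.45), and Rims1, Rims2 and Rims4 were lower.

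Among the priming factors, Unc13c, known for its role in the cerebellum, was at 236, 223, 220.1 and 229.9 CPM in D1-MSN. In Sst interneurons it was at 16.4, 5.08, 23.6 and 9.81 CPM, from 22 UMIs in all (log2 -4.40, SE 0.328, edgeR adjusted p = 8.55e-16). Pthlh interneurons held 6.71 to 59.0 CPM (log2 -3.52, SE 0.244). Its share of Unc13 UMIs was 61.9% ± 1.76 in D1-MSN, 68.1% ± 2.34 in D2-MSN, 18.9% ± 12.9 in Pthlh and 7.26% ± 4.45 in Sst interneurons (SD, n = 4 libraries). Unc13a, the main priming factor of forebrain synapses, did not pass the test in either interneuron class, with means of 99.9 CPM in Sst and 92.0 CPM in Pthlh interneurons beside 94.7 CPM in D1-MSN. Unc13b was higher in glutamatergic neurons, at 157, 223, 244 and 135 CPM (log2 2.20, SE 0.122), and lower in Grm8-MSN, at 14.2 to 18.8 CPM (log2 -1.34, SE 0.175). Unc13d, the priming factor of immune cell granules, was at 20.7 to 29.4 CPM in microglia, 87.2 times the level of D1-MSN and D2-MSN (95% exact counting interval 46.5 to 170.2), which held 16 UMIs.

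Among the neuronal classes, Sv2b and Sv2c had opposite directions in glutamatergic neurons, while all 3 Sv2 genes were lower than in MSN in astrocytes, oligodendrocytes and OPC. Their promoters are shown because the 3 paralogs were distributed differently over the classes. Each stretch runs from 250 bases before to 50 after the gene's start in RefSeq (GRCr8) and is read on the gene's strand. Capitals mark the GC box, GGGCGG on either strand. Sv2a lies at chr2:186430113-186430412 on the plus strand, Sv2b at chr1:138562209-138562508 and Sv2c at chr2:29163119-29163418, both on the minus strand.
Sv2a: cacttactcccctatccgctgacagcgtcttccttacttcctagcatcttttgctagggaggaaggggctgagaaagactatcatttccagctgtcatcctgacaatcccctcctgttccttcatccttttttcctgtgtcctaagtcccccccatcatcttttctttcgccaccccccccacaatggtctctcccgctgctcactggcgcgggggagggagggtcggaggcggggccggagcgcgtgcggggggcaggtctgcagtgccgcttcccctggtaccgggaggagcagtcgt
Sv2b: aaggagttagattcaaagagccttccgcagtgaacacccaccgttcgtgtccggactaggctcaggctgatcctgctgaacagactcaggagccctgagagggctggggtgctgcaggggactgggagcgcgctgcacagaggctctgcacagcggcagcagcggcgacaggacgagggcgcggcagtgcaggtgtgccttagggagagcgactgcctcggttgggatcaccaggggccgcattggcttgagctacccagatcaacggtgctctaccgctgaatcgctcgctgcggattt
Sv2c: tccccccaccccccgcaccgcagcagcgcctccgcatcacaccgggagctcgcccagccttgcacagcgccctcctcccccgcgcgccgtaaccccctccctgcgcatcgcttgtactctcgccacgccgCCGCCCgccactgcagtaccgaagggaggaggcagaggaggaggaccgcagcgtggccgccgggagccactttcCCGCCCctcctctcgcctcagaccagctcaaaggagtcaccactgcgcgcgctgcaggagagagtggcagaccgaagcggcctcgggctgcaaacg
The Sv2c stretch holds 2 GC boxes and the stretches of Sv2a and Sv2b hold 0. The box was found in 33.1% of 33469 RefSeq promoters of this length and in 32 of the 49 members with an entry. CG dinucleotides numbered 32 in Sv2c, 20 in Sv2b and 15 in Sv2a, beside a median of 7 over all promoters. A match of letters is a description of the sequence only.

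Sv2c, known for its abundance in the basal ganglia, was at 423, 419, 459 and 435 CPM in D1-MSN. D2-MSN (423 to 489 CPM) and Grm8-MSN (448 to 525 CPM) overlapped this range and did not pass the test (edgeR adjusted p = 0.918 and 0.993, log2 0.07, SE 0.142 and 0.01, SE 0.128). Glutamatergic neurons had 27.3, 16.7, 35.9 and 18.5 CPM (log2 -4.11, SE 0.240, edgeR adjusted p = 1.10e-19). Sv2b, which is abundant in cortical excitatory neurons, ran opposite, at 404, 489, 521 and 460.2 CPM in glutamatergic neurons against 92.7 to 113 CPM in D1-MSN (log2 2.22, SE 0.0954, edgeR adjusted p = 1.03e-24). It was at 11.1, 16.3, 14.3 and 12.5 CPM in Grm8-MSN, below every D1-MSN and D2-MSN library (log2 -2.89, SE 0.162, edgeR adjusted p = 7.83e-20). Sv2a, the broadly expressed form and target of the antiepileptic levetiracetam, was higher in Grm8-MSN (log2 0.38), Sst (log2 0.61) and Pthlh interneurons (log2 0.72). As a share of Sv2 UMIs, Sv2c made up 72.9% ± 1.83 in D1-MSN, 83.7% ± 1.70 in Grm8-MSN and 4.27% ± 1.38 in glutamatergic neurons (SD, n = 4 libraries). Sv2b made up 81.7% ± 3.07 in glutamatergic neurons and 2.38% ± 0.343 in Grm8-MSN. Sv2a made up 54.6% ± 11.1 in Sst interneurons and 9.66% ± 0.509 in D1-MSN.

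**Figure D3:**
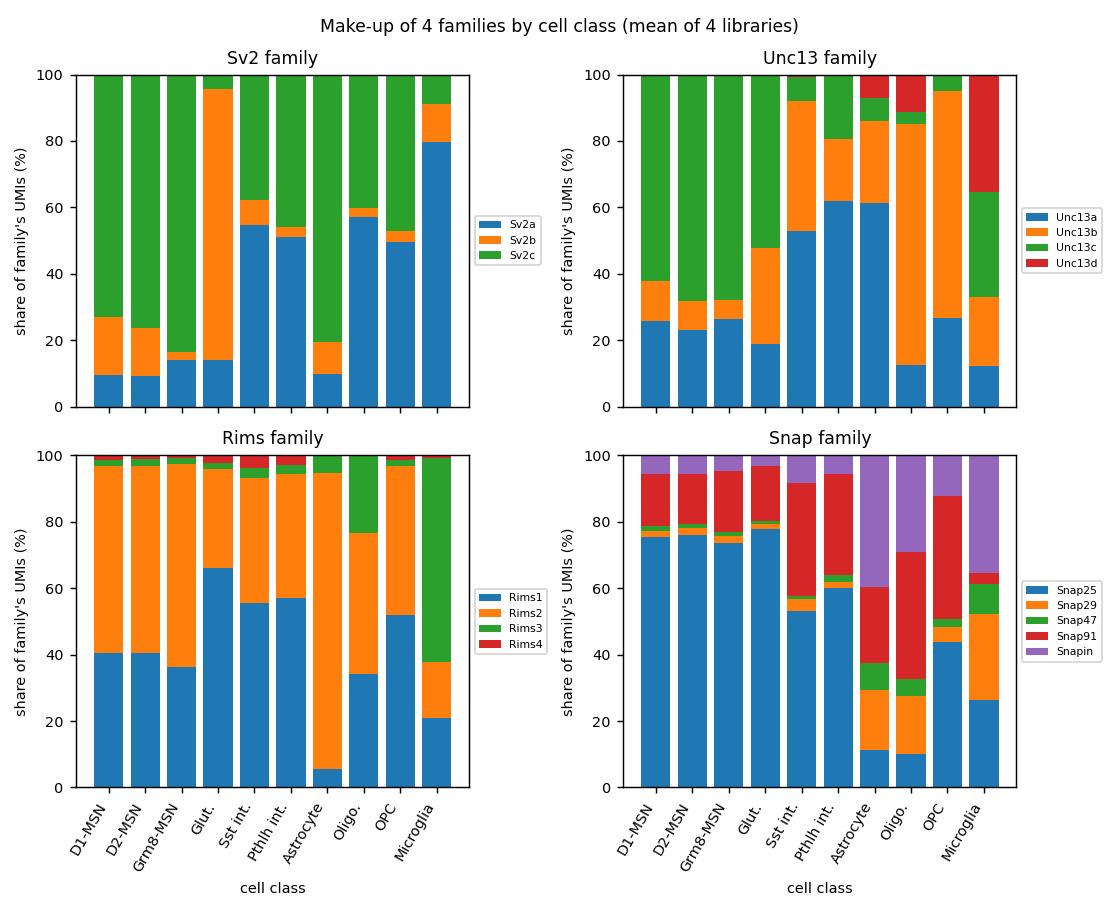
Share of each member in its family's UMIs (%, mean of 4 libraries, stacked to 100) by cell class for the Sv2, Unc13, Rims and Snap families. Sv2c fills 72.9% of the D1-MSN bar and Sv2b 81.7% of the glutamatergic bar, and Unc13c fills 61.9% in D1-MSN and 7.26% in Sst interneurons.

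UMIs of MSN marker genes were also counted in the nuclei of other classes. The 7 MSN markers together were at 3.55% of their D1-MSN and D2-MSN level in oligodendrocytes, 3.56% in microglia, 6.75% in astrocytes and 11.8% in OPC. In the other neurons they were at 24.1% in glutamatergic neurons, 41.7% in Sst and 19.3% in Pthlh interneurons. Of 52 members above 5 CPM in MSN, 10 in oligodendrocytes were at or below the markers' percentage, among them Syt1, Snap25, Syt10 and Unc13c. In astrocytes 11 members were, in microglia 10 and in OPC 6. Whether these counts come from MSN RNA or from the nuclei's own expression was not tested. Syt1 in OPC, at 16.8% to 21.8% of the MSN level in the 4 libraries, was above the markers (11.2% to 12.2%).

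Outside the families, 36 further genes of the release machinery were examined, of which 35 passed the filter (synapsins, Rab3 genes and Rab27b, active zone scaffolds, calcium channels, Nsf and its adaptors, and others). By edgeR, 17 were higher and 8 lower in glutamatergic neurons (48.6% and 22.9%, beside 21.7% and 21.5% of all genes). Sst interneurons had 15 and 9 (42.9% and 25.7%, beside 18.3% and 20.5%). Pthlh interneurons had 17 and 8 (48.6% and 22.9%, beside 22.8% and 23.3%). The lower shares were near those of all genes in glutamatergic neurons and Pthlh interneurons. In Grm8-MSN 8 were higher and 5 lower (22.9% and 14.3%, beside 13.2% and 14.0%). In D2-MSN against D1-MSN 1 was higher and 3 lower (2.86% and 8.57%, beside 2.87% and 3.91%). In glia most were lower, 29 of 35 in astrocytes and in oligodendrocytes (82.9%, beside 34.9% and 37.9% of all genes). These were 24 in OPC (68.6%, beside 29.7%) and 31 in microglia (88.6%, beside 34.7%). The median log2 difference of these 35 genes was -2.32 in astrocytes and -2.21 in oligodendrocytes. That of the 55 members was -1.23 and -0.67, and that of all genes 0.01 and 0.06.

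Cocaine against saline was tested in each class with sex as a covariate. This left 1 residual degree of freedom for each gene, so p-values lean on a spread shared over all genes. The shared spread weighed as 5.39 degrees of freedom in microglia, 115.6 in D1-MSN and without limit in Grm8-MSN and OPC. Without the sex term, the number of all genes called went from 122 to 0 in D1-MSN, 69 to 0 in D2-MSN, 91 to 2 in Grm8-MSN and 97 to 0 in oligodendrocytes. In D1-MSN 0 of 55 tested members passed at adjusted p under 0.05 by edgeR, beside 0.969% of all genes. At unadjusted p under 0.05 there were 7 members by edgeR (12.7%, beside 9.35% of all genes). DESeq2 put 0 members under that level, beside 91 of 12590 genes, and called 0 members and 4 of all genes. In D2-MSN 0 of 54 passed (0.561% of all genes), with 5 at unadjusted p under 0.05 (9.26%, beside 9.72% of all genes). There DESeq2 put 0 members under that level, beside 75 of 12299 genes, and called 0 members and 1 of all genes.

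The D1-MSN member with the smallest p was Syt6, at 82.1 and 72.1 CPM in saline females and males and 100.0 and 90.5 CPM in cocaine females and males. Both cocaine libraries lay above both saline libraries (log2 0.28, SE 0.0926, edgeR adjusted p = 0.158). With Leiden clusters in place of the gate, Syt6 passed in D1-MSN (log2 0.37, edgeR adjusted p = 0.0406). In D2-MSN the order was turned, with 108 and 111 CPM in saline and 98.5 and 107 CPM in cocaine (log2 -0.14, SE 0.0861, edgeR adjusted p = 0.648). The difference between the 2 classes was tested itself and was -0.43 for Syt6 (SE 0.104, edgeR adjusted p = 0.117). It passed in 4 of 8 alternative analyses by edgeR: without the low-count filter (adjusted p = 0.0124), with Leiden clusters in place of the gate (0.00185), without the saline female library (0.00434) and without the cocaine male library (0.00128). DESeq2 gave an adjusted p of 1.0, the stricter gate 0.159, and the edgeR fits without the saline male or the cocaine female library 0.474 and 0.792. In all, 0 of 55 members and 0.094% of all genes differed in their cocaine effect between D1-MSN and D2-MSN by edgeR. At unadjusted p under 0.05 there were 10 members (18.2%, beside 7.03% of all genes). DESeq2 called 0 members and 0 of all 12761 genes, and put 44 of all genes under unadjusted p of 0.05.

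Among the other D1-MSN members with 1 sign in both sexes, Syt10 was at 63.4 and 52.3 CPM in saline and 79.7 and 65.5 CPM in cocaine (log2 0.30, SE 0.100, edgeR adjusted p = 0.159). Its groups did not overlap, by a narrow gap. Stx6 was at 38.5 and 33.5 CPM in saline and 43.6 and 47.2 CPM in cocaine (log2 0.31, SE 0.114, edgeR adjusted p = 0.236). Syt12 and Unc13a had log2 values of 0.24 and 0.18. Unc13a had overlapping groups and lay at -0.027 without the saline male library. Negative log2 values were those of Sv2b (-0.20), Syt9 (-0.26), Stxbp5 (-0.16), Syt16 (-0.13) and Stxbp4 (-0.42). None of these members passed the test. Stxbp4 had the opposite sign in D2-MSN (log2 0.45, SE 0.284), where its level was 4.11 and 5.86 CPM in saline and 7.22 and 6.80 CPM in cocaine.

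In D2-MSN, Rims3 was at 29.6 and 32.9 CPM in saline and 37.8 and 47.3 CPM in cocaine (log2 0.39, SE 0.120, edgeR adjusted p = 0.130). The cocaine libraries were both above the saline libraries. Snap47, Vamp1 and Stx12 had log2 values of 0.36, 0.25 and 0.18. Unc13c was at 309 and 263 CPM in saline and 273 and 240.1 CPM in cocaine, groups that overlap (log2 -0.20, SE 0.0744, edgeR adjusted p = 0.252). Rims1 was at 757 and 775 CPM in saline and 705 and 713 CPM in cocaine, with no overlap (log2 -0.16, SE 0.0701, edgeR adjusted p = 0.414). Syt9 and Stxbp5 had log2 values of -0.26 and -0.16. None of these members passed the test.

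**Figure D4:**
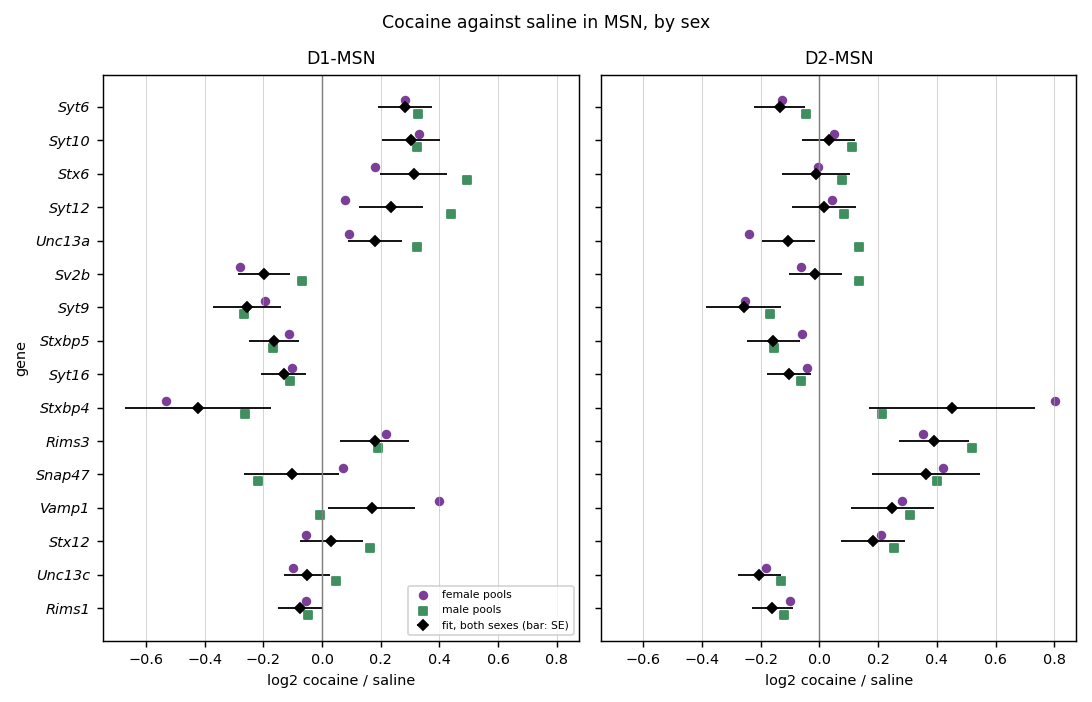
Log2 ratio of cocaine to saline in D1-MSN and D2-MSN for the 16 members named for these classes; the fitted value is drawn with its SE, and the female and male pools as separate points with 0.5 added to each count. Syt6 lies right of 0 in both sexes of D1-MSN and left of 0 in both sexes of D2-MSN, and no member passed the adjusted threshold.

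In Grm8-MSN 1 of 52 members passed (0.842% of all genes). Stxbp6 was at 42.7 and 59.3 CPM in saline and 80.6 and 70.6 CPM in cocaine (log2 0.58, SE 0.159, edgeR adjusted p = 0.0380). The groups did not overlap, with log2 ratios of 0.91 in females and 0.25 in males. Among 11 alternative analyses the call was kept with RLE scaling alone (adjusted p = 0.0356). The log2 value of Stxbp6 was 0.21 with the stricter gate and -0.17 with Leiden clusters in place of the gate. In oligodendrocytes and OPC Stxbp6 had log2 values of -0.29 and -0.38 and did not pass (edgeR adjusted p = 0.121 and 0.272).

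The other neuronal classes gave 0 member calls by edgeR and by DESeq2. Over all genes DESeq2 called 2 in glutamatergic neurons and 0 in each interneuron class. By edgeR it was 0 of 51 members in glutamatergic neurons (0.0948% of all genes), with 3 at unadjusted p under 0.05 (5.88%, beside 4.63% of all genes). In Sst interneurons it was 0 of 42 (0.325%), with 1 at that level (2.38%, beside 7.82%). In Pthlh interneurons it was 0 of 48 (0.15%), with 5 at that level (10.4%, beside 5.55%). Sv2c had the smallest p in both interneuron classes. In Pthlh interneurons it was at 65.6 and 62.0 CPM in saline and 177 and 91.8 CPM in cocaine (log2 1.09, SE 0.239, edgeR adjusted p = 0.0506). In Sst interneurons it was at 45.9 and 50.8 CPM in saline and 74.8 and 141 CPM in cocaine (log2 1.11, SE 0.303, edgeR adjusted p = 0.221). In both classes the cocaine libraries lay above the saline libraries, from 238 and 115 Sv2c UMIs in all. The 7 MSN markers were at 1683 and 1323 CPM in saline and 1488 and 1345 CPM in cocaine in Pthlh interneurons. In Sst interneurons the markers were at 2817 and 2789 CPM in saline and 3129.7 and 3888 CPM in cocaine, and their part in the Sv2c values was not tested. By edgeR, Sv2c passed in 4 alternative analyses of Pthlh interneurons (adjusted p = 0.0461 with RLE scaling, 0.0378 with doublets kept, 0.0453 when saline males were left out and 0.00111 when cocaine males were). It passed in 2 of Sst interneurons (adjusted p = 0.0149 with Leiden clusters and 0.0162 without the cocaine female library, by edgeR). Unc13c passed in Pthlh interneurons without the saline female library (log2 2.59, edgeR adjusted p = 0.0332).

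In oligodendrocytes 2 of 46 members passed (0.909% of all genes). Sv2c was at 54.6 and 48.8 CPM in saline and 15.3 and 22.1 CPM in cocaine (log2 -1.57, SE 0.173, edgeR adjusted p = 4.95e-11). These levels come from 225, 115, 52 and 52 UMIs, and both saline libraries lay far above both cocaine libraries. Sv2c was lower in both sexes, with log2 ratios of -1.82 in females and -1.14 in males. DESeq2 gave an adjusted p of 0.243, the edgeR fit with no sex term 0.226 and the edgeR fit without the cocaine female library 0.238. A Sv2c UMI was seen in 141 of 1889 and 69 of 1267 saline nuclei and in 42 of 1810 and 31 of 1406 cocaine nuclei, with at most 9 UMIs in 1 nucleus. These are 7.46% and 5.45% of nuclei in saline and 2.32% and 2.21% in cocaine. With each nucleus thinned to 1000 UMIs, the shares were 4.70% and 3.08% in saline and 1.26% and 1.17% in cocaine, after 17 and 65 shallower saline and 66 and 126 shallower cocaine nuclei were left out. In microglia, taken as a class that should lack Sv2c, the thinned shares were 0.50% and 0% in saline and 0.948% and 0.719% in cocaine. They rest on 1 of 200 and 0 of 104 saline nuclei and 2 of 211 and 1 of 139 cocaine nuclei. These are too few to compare the treatments. Median depths were 2013, 1636, 1718 and 1518.5 UMIs in oligodendrocytes and 1747, 1166.5, 1371.5 and 1148.5 UMIs in microglia.

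The lower level of Sv2c was then examined within clusters of these oligodendrocyte nuclei, chosen after the result was known. In the largest, cluster 0, Sv2c was at 64.3 and 50.6 CPM in saline and 13.2 and 15.7 CPM in cocaine. In cluster 12 it was at 126 and 130.1 CPM against 64.8 and 82.1 CPM. In cluster 6 it was at 10.7 and 6.01 CPM against 1.94 and 7.47 CPM, which overlap and rest on 2 to 11 UMIs a library. Relative to the MSN of the same library, Sv2c in oligodendrocytes stood at 12.6% and 11.6% in saline and at 3.23% and 4.99% in cocaine. The 7 MSN markers stood at 3.41% and 3.23% in saline and 3.51% and 4.04% in cocaine. In cocaine, Sv2c was near the markers, below them in females and above them in males. The part of MSN RNA in the Sv2c values was not tested.

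Syt1 had the opposite direction in oligodendrocytes, at 29.4 and 39.04 CPM in saline and 55.7 and 54.7 CPM in cocaine (log2 0.67, SE 0.150, edgeR adjusted p = 0.00612). The groups did not overlap. Syt1 stood at 0.92% to 1.70% of the MSN level in the 4 libraries, below the 7 MSN markers in each, and the part of MSN RNA in its values was not tested. Single nuclei weighed in it. In the cocaine male library 34 of the 129 UMIs came from 1 nucleus, and in the cocaine female library 15 of 189. In the saline male library 25 of the 92 UMIs came from 2 nuclei, 13 of them from 1. Without nuclei holding over 5 Syt1 UMIs, an analysis added after the result was seen, the levels were 29.4 and 28.6 CPM in saline and 51.4 and 40.5 CPM in cocaine. Snap25 had the same order, at 26.2 and 19.5 CPM in saline and 39.8 and 28.8 CPM in cocaine, and did not pass (edgeR adjusted p = 0.168). Within clusters, Syt1 in cluster 0 was at 31.3 and 35.3 CPM in saline and 59.2 and 33.9 CPM in cocaine females and males. It was thus not higher in cocaine males there. In cluster 6 it was at 19.5 and 26.4 CPM against 43.6 and 82.2 CPM. In cluster 12 it was at 44.6 and 32.5 CPM against 57.6 and 48.6 CPM, from 11 to 16 UMIs a library. The Syt1 call was lost with DESeq2, with no sex term, with doublets kept, with Leiden clusters and in 3 of the 4 fits that left out a library, all but that without the saline male library.

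**Figure D5:**
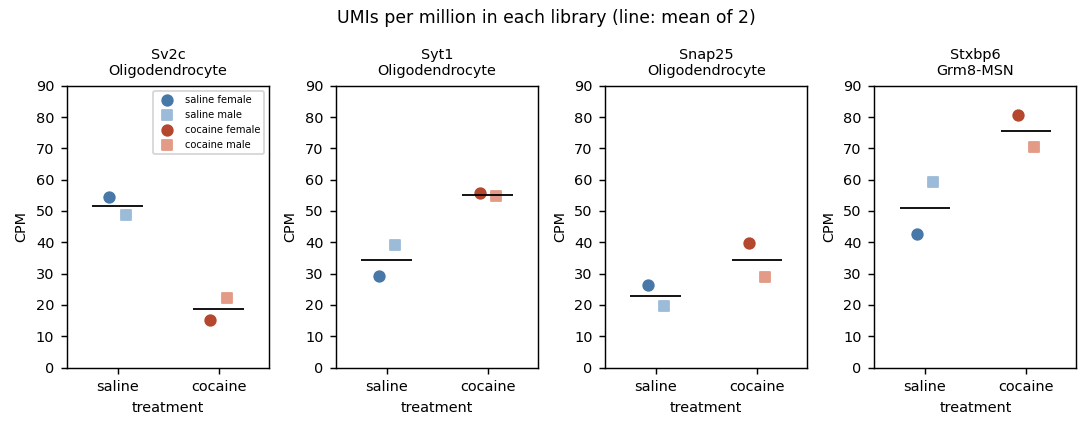
CPM of the members that passed the test in oligodendrocytes (Sv2c, Syt1) and Grm8-MSN (Stxbp6), and of Snap25 in oligodendrocytes, in each library by treatment, with lines at the group means. Sv2c is at 48.8 and above in saline and at 22.1 and below in cocaine, while Syt1 and Stxbp6 are higher in both cocaine libraries.

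In the remaining glial classes no member passed by edgeR or DESeq2. Over all genes DESeq2 called 1 in astrocytes, 1 in OPC and 2 in microglia. By edgeR it was 0 of 43 members in astrocytes (0.00968% of all genes), with 1 at unadjusted p under 0.05 (2.33%, beside 5.98% of all genes). The summed MSN markers in astrocytes were at 345 and 312 CPM in saline and 783 and 605 CPM in cocaine, and their part in the members' values was not tested. In OPC it was 0 of 46 (0.407%), with 4 at that level (8.70%, beside 6.92%), and in microglia 0 of 26 (0.0% of all genes), with 0 (beside 3.40%). In microglia, 1 nucleus held 43 of the 50 Syt1 UMIs of the saline male library and another 46 of the 74 of the cocaine female library. Without the saline male library Syt1 passed there (log2 2.24, edgeR adjusted p = 2.63e-05), as did Rims1 (log2 2.90), and Rims1 also passed without the cocaine male library (log2 2.36). None of the further release genes passed the test for cocaine in any class by edgeR. At unadjusted p under 0.05 there were 6 of 27 in oligodendrocytes (22.2%, beside 9.79% of all genes). Astrocytes had 5 of 27 (18.5%, beside 5.98%) and Sst interneurons 4 of 33 (12.1%, beside 7.82%). D1-MSN and D2-MSN had 4 of 35 each (11.4%, beside 9.35% and 9.72%), and OPC 3 of 29 (10.3%, beside 6.92%). Glutamatergic neurons had 2 of 32 (6.25%, beside 4.63%). Shares were below those of all genes in Grm8-MSN (2.86%, beside 8.56%), Pthlh interneurons (3.03%, beside 5.55%) and microglia (0%, beside 3.40%).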

How the data were processed

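Nuclei of 4 pooled libraries were profiled by 10x 3′ v3 single-nucleus RNA sequencing. The deposited files hold UMI counts per gene and nucleus, made with Cell Ranger 6.1.2 per the file headers, on rn7 per the submitters' processing notes; the annotation is not given in the sources used here. Barcodes under 200 genes or above 5% mitochondrial UMIs were dropped, and 1381 were removed as doublets with Scrublet, run in scanpy 1.11.5, at an expected 0.8% per 1000 nuclei. Each nucleus was given the class with the best marker score (at least 0.5, 0.25 above the next, at least 2 markers and 3 UMIs, and 75% of D1 and D2 marker UMIs for one MSN type). These thresholds were set after marker levels were seen. Of 77 markers, 71 were listed by symbol. The gate and Leiden clusters (23 clusters) gave the same class for 97.5% of nuclei named by both. Classes with at least 25 nuclei in each library were tested.

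Counts were summed per library and class and tested with edgeR 4.0.16 (R 4.3.3, TMM scaling, quasi-likelihood, Benjamini-Hochberg adjustment over all genes). Class fits had library as a term, cocaine fits had sex, and the difference in cocaine effect between D1-MSN and D2-MSN was fitted with library as a term. The code was tested on simulated data. Alternatives were DESeq2 1.42.0, RLE scaling, no low-count filter, no sex covariate, a gate margin of 0.5, doublets kept, Leiden clusters, and each library left out. The text names members called for cocaine, up to 5 in each direction in D1-MSN and D2-MSN with 1 sign in both sexes, up to 3 in each direction per class contrast, the member with most MSN UMIs in each family, and all tested members of the Rims, Snap, Sv2 and Unc13 families and of Cplx. Sv2c and Unc13c in interneurons, Stxbp6 in OPC and oligodendrocytes, Snap25 in oligodendrocytes, and Syt1 and Rims1 in microglia were chosen for the cocaine comparison after their values were seen. Results for some members are not reported here. Members and lists were chosen with earlier results of these data known.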

Additional observations from a re-analysis of the deposited data

How the results depend on the processing

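For the 52 named class differences, chosen for their size, 570 of 572 comparisons with an alternative kept their direction and their side of the threshold, and 2 no longer passed with DESeq2 (Syt10 and Syt4 in D2-MSN against D1-MSN). The 3 called cocaine values kept their call in 13 of 33 comparisons (Sv2c in 8 of 11, Syt1 in 4 and Stxbp6 in 1). Over all 23 named cocaine values, most of them not called, 2 of 253 changed sign. These were Stxbp6 in Grm8-MSN with Leiden clusters (-0.17) and Unc13a in D1-MSN. The latter was at -0.027 without the saline male library, and these fits ranged up to 0.405. Values named in D1-MSN and D2-MSN had been picked for a small p and 1 sign in both sexes of these libraries. An unchanged sign was therefore likely beforehand. Members called for cocaine in Grm8-MSN numbered 0 with DESeq2, no filter, no sex covariate, the stricter gate, doublets kept and Leiden clusters. Calls over all genes there numbered 3, 68, 2, 51, 72 and 45 in that order, beside 91 in the main fit. In oligodendrocytes the members called numbered 0 with DESeq2 and with no sex covariate, and 1 with doublets kept and with Leiden clusters. Calls over all genes there numbered 1, 0, 51 and 169 in that order, beside 97 in the main fit. With Leiden clusters 1 member was called in D1-MSN (Syt6) and 1 in Sst interneurons (Sv2c). In Pthlh interneurons 1 was called with RLE scaling and 1 with doublets kept. Over all genes these analyses called 76, 27, 13 and 17 in that order. D2-MSN against D1-MSN gave 2 members with DESeq2 and 9 with no filter, beside 4.77% and 4.73% of all genes. The difference in cocaine effect between D1-MSN and D2-MSN gave 1 member with no filter and 1 with Leiden clusters (0.319% and 0.128% of all genes). The Sv2b share in D1-MSN was 15.6% with Leiden clusters. Leaving out 1 library gave 0 to 0 calls in Grm8-MSN, 0 to 1 in Sst and in Pthlh interneurons, 0 to 2 in oligodendrocytes, in microglia and for the difference in effect. These cocaine fits have 3 libraries and no sex term, so a lone library is assumed to vary like the pair. For the difference in effect they were added after seeing the data. The cause of these changes was not tested. Sex pairs 1 library of each treatment and served as the replicate block; with no replicate block, 0 members were called in Grm8-MSN and 0 in oligodendrocytes, and calls over all genes in oligodendrocytes went from 97 to 0. Depth limited Cplx3, Cplx4 and Syt8, with 29, 23 and 0 UMIs.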

Other observations

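Cholinergic interneurons, with 91 nuclei of which 8 came from the cocaine male library, were too few for a test. Their pooled level of Sv2c was 893 CPM, with 682, 759, 1221 and 953 CPM in the saline female, saline male, cocaine female and cocaine male libraries. Syt1 was at 4748, 5256, 4659 and 6085 CPM and Rims1 at 2449, 2586, 2214 and 2682 CPM. Syt17, all but missing from MSN, was at 25.9, 24.3, 14.4 and 0 CPM. Sv2b was at 31.7, 3.03, 20.2 and 0 CPM.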
